A study of Mus musculus with 8 samples.

Results

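The Dlk1-Meg3 locus is an imprinted stretch of mouse chromosome 12, and H3K4me3 was followed here at its 7 genes, Begain, Dlk1, Meg3, Rtl1, Rian, Mirg and Dio3. They are 7 of 26212 annotated genes of the types kept (protein-coding, lincRNA and processed transcript), and they are the named genes of the locus from the start of Begain to the end of Dio3 (chr12:110270397-111519307, mm9), a span of 1249 kb. The rule that takes them uses no measured value, although earlier results of these data were known when it was set. The span holds 9 annotated genes of these types. The other 2, Gm17639 and Dio3os, were not taken as members. Dio3os starts before Dio3 on the other strand, within the stretch counted for Dio3, so tags there cannot be told apart between them. A region of 1200 bp between Dlk1 and Meg3 (chr12:110765801-110767000), which ends 12.2 kb before the annotated Meg3 start and holds no annotated gene, was described beside them and is called the upstream region. The study listed this region for lower H3K4me3 in menin-null mESCs, so its mESC values are given as a description, and its PILEC values were not used in choosing it. The same list holds the Meg3 promoter, whose low value in mESCs was thus known beforehand.

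Chromatin was taken from mouse embryonic stem cells (mESCs), the line TC-1 as wild-type (wt) and the line 3.2N as Men1-KO (menin-null), and from pancreatic islet-like endocrine cells (PILECs) that were differentiated in vitro from each. All have the genetic background 129S6/SvEvTac. The mESCs were grown on irradiated feeder fibroblasts and then freed of them. Each kind of cell gave 1 H3K4me3 ChIP-Seq library and 1 input library, 8 in all, and each genotype is a single cell line, so genotype, line and library cannot be told apart and no value has a replicate. All ratios below are menin-null over wt and compare libraries.

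Imprinted genes are expressed from the copy inherited from one parent. In this locus the protein-coding genes Dlk1, Rtl1 and Dio3 are expressed mainly from the paternal chromosome and the noncoding RNA genes Meg3, Rian and Mirg from the maternal chromosome, and a control element between Dlk1 and Meg3 is methylated on the paternal copy. H3K4me3 is a histone mark of active and poised promoters, placed at many of them by MLL complexes, of which menin is a subunit.

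Sequences about the annotated Meg3 start and in the upstream region are printed here from the mm9 genome, the plus strand in lower case. The Meg3 levels and ratios below were counted within 1 kb of another start, 1.02 kb into the gene. Most of the printed Meg3 bases thus lie outside the bases counted there. In the 300 bases around the annotated Meg3 start (chr12:110778961-110779260, 250 bases before it and 50 from it on) the capitals mark TGACGTCA, the cAMP response element, 62 bases before the start, and GCGGCA, the other strand of the ZFP57 motif TGCCGC, 195 bases before it. In the 300 bases of the upstream region that hold the most ZFP57 motifs (chr12:110766431-110766730) the capitals mark TGCCGC. The 4 primers with which the study examined the Meg3 promoter by ChIP-PCR are in capitals throughout.
Meg3 promoter: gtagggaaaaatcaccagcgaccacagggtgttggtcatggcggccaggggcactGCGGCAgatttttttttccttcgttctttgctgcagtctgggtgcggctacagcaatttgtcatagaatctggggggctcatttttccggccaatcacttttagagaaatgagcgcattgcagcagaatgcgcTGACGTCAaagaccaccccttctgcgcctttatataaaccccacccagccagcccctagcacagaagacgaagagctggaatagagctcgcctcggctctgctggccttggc
Upstream region: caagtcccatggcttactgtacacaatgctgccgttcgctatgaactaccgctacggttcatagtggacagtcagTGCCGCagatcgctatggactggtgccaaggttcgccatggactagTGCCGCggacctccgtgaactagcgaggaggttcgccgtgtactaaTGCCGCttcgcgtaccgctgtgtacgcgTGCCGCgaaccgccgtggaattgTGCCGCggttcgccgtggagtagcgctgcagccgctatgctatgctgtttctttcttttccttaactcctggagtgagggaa
Primer 1F: TTCCGGCCAATCACTTTTAG
Primer 1R: TCAGGCAAAGGATGGCTAAC
Primer 2F: AGCCCCTGACTGATGTTCTG
Primer 2R: GAGCCCTAGTTGTGGATGGA

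Motifs were searched on both strands and did not overlap one another where marked. The stretch of the upstream region printed above held TGCCGC 5 times, all on the plus strand, and the whole region held it 6 times. At least 1 copy was found in 15.5% of 26206 promoters of the same length, and 5 or more in 0.0153%. Since these 300 bases were chosen for their copies, the comparison describes the sequence and tests nothing. TGACGTCA was found in 2.21% of promoters. It was in the printed Meg3 sequence and not in the 300 bases of the upstream region. The promoters compared were taken at the most tagged start of each gene, which for Meg3 lies 1.02 kb further into the gene than the printed one. The YY1 motif CCATNTT, found in 16.2% of promoters, was in neither printed stretch, and the whole upstream region held 1 copy. CG pairs numbered 13 in the Meg3 promoter and 29 in the upstream stretch, against a median of 12 over all promoters. Primers 1F and 1R bound a product of 237 bp (chr12:110779100-110779336) that spans the annotated Meg3 start, and primers 2F and 2R a product of 155 bp (chr12:110778804-110778958) that ends 253 bp before it. The H3K4me3 tags of the first product numbered 7 (wt) and 0 (menin-null) in the mESC libraries and 62 (wt) and 57 (menin-null) in the PILEC libraries. For the second product they numbered 5, 0, 54 and 50, in the same order. Here a tag is a uniquely aligned read, counted at the middle of its 250-bp fragment, and where 0 tags were counted up to 3 are allowed for.

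The H3K4me3 libraries held 2432377 to 3517028 tags in mESCs and 17682677 to 18773635 in PILECs, and the input libraries 3744616 to 4248298 and 18120807 to 19016697. Over exons 3 to 8 of Men1 no input tag fell in either menin-null library, against 17 in wt mESCs and 22 in wt PILECs. The starts of 7 mESC marker genes summed to 278 (wt) and 323 (menin-null) H3K4me3 tags per 1000000 (RPM) at the mESC stage and to 38.4 and 39.6 RPM at the PILEC stage. Most of the PILEC sums came from Sox2, with 26.8 (wt) and 30.0 (menin-null) RPM, and each other marker held at most 3.25 RPM. In PILECs the islet hormone genes held 4 (wt) and 9 (menin-null) tags at Ins1, 6 and 8 at Gcg, 17 and 22 at Ins2 and 13 and 6 at Iapp, each at most 1.24 RPM. Of the islet transcription factor genes, Pdx1 held 20 and 24 tags, Nkx6-1 113 and 150, Isl1 154 and 178 and Pax6 362 and 388, while Neurod1 held 136 and 98 and Mafa 150 and 101. The 10 islet markers summed to 51.9 RPM in wt and 55.6 RPM in menin-null PILECs, below their 80.2 and 99.5 RPM in mESCs. The 5 fibroblast markers summed to 53.4 (wt) and 66.5 (menin-null) RPM at the mESC stage and to 56.5 and 48.6 RPM at the PILEC stage, and their part in the results was not tested. The 3 neural markers placed summed to 40.7, 48.1, 63.7 and 51.6 RPM and the 3 muscle markers to 18.5, 16.8, 3.20 and 3.11 RPM, from wt and menin-null mESCs to wt and menin-null PILECs.

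Input was examined before the mark, because it counts the DNA that is available to the immunoprecipitation. From Begain to Dio3 the mESC inputs held 1231 (menin-null) and 2853 (wt) tags, so menin-null mESCs had 49.0% of the wt input RPM (log2 ratio -1.03, 95% interval -1.13 to -0.93). In PILECs it held 8604 and 10424 tags, 86.6% of wt (-0.21, -0.25 to -0.17). Each of 26 bins of 50 kb across the locus lay below 0 in both stages, from -1.88 up to -0.42 at the mESC stage and from -0.42 up to -0.03 at the PILEC stage. Over the autosomes the median bin stood at 0.01 in mESCs, and 0.0990% of 46476 bins were as low as the median bin of the locus. The corresponding share in PILECs was 3.88%. Input follows the amount of DNA but also varied along the locus within 1 library, with 0.468 RPM per kb within Rian and 1.04 within Mirg in wt mESCs. Fewer copies of the locus in the menin-null mESCs cannot be told apart from a property of that 1 library. Division by input adjusts for the amount of DNA only as far as input follows it, and not for which parental copy it comes from. A ratio at a site marked on 1 parental copy thus cannot separate a lower mark from fewer marked copies. H3K4me3 was therefore also given relative to the input within 50 kb of each start, and such a value is called the level over local input or, as a ratio of genotypes, the scaled ratio. Unless stated otherwise, intervals of ratios are exact conditional 95% intervals and, like the limit of 3 tags, cover counting error only.

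**Figure D1:**
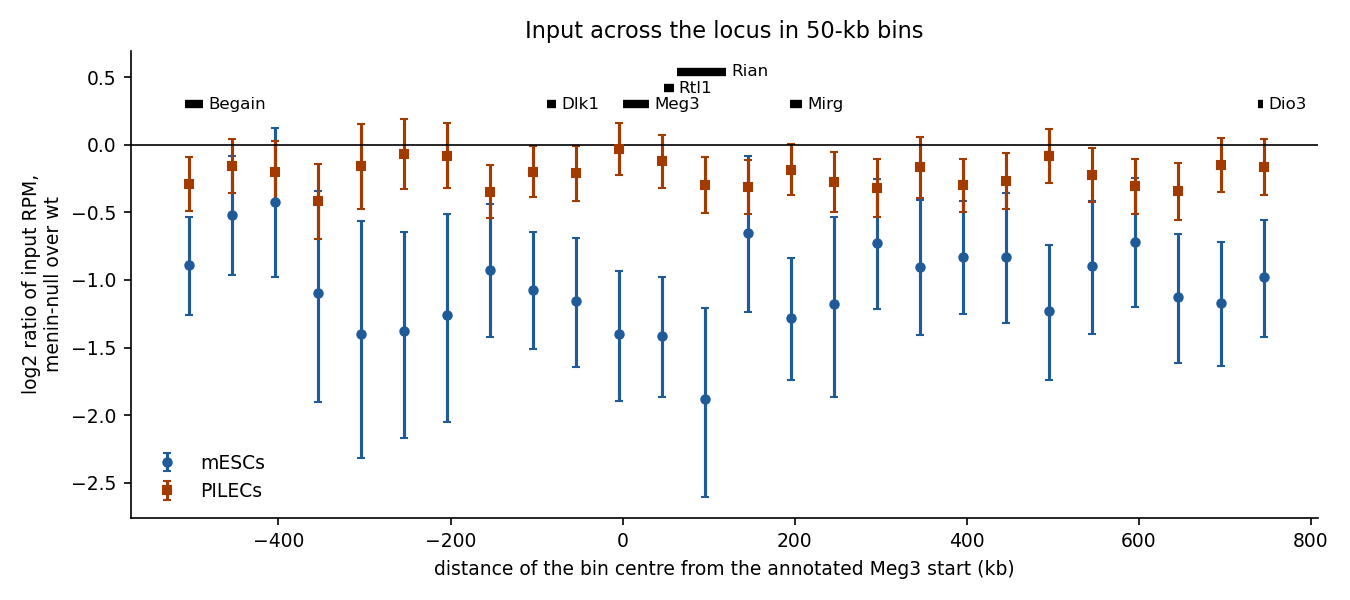
The points show the log2 ratio of input RPM, menin-null over wt, in 50-kb bins, against the distance of the bin from the annotated Meg3 start in kb. Blue circles are mESCs and brown squares PILECs, bars are exact 95% counting intervals, and black bars mark the genes. All 26 bins lie below 0 in both stages, and the lowest mESC point, at -1.88, lies over Rian.

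Meg3 is the noncoding RNA gene at the start of the maternally expressed group (annotated from 110779211 to 110809936, plus strand), and RNA from it has been described as a growth suppressor. Within 1 kb of its most tagged annotated start (110780233, 1.02 kb into the gene) the mESC libraries had 64 (wt) and 7 (menin-null) H3K4me3 tags and the PILEC libraries 751 (wt) and 683 (menin-null). In RPM these were 26.3, 1.99, 40.0 and 38.6, so the menin-null mESC library was low and the other libraries were of the same order. The level over local input was 17.1-fold (95% interval 12.9 to 22.5) in wt mESCs and 3.39-fold (1.33 to 7.21) in menin-null mESCs. In wt PILECs it was 41.7-fold (37.8 to 46.0) and in menin-null PILECs 42.1-fold (38.0 to 46.6). The mark was thus lower in menin-null mESCs but still above the local input there, and in PILECs it was the highest of the locus in both genotypes. The menin-null mESC level rests on 7 tags, and no 1-kb window at Meg3 passed the threshold of the window search below in that library.

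In mESCs the log2 ratio of H3K4me3 RPM at Meg3 was -3.72 (-5.10 to -2.60). The local input, with 110 (menin-null) and 326 (wt) tags, had a log2 ratio of -1.39 (-1.71 to -1.07), which leaves a scaled ratio of -2.34 (-3.75 to -1.15). In PILECs the ratio of RPM was -0.05 (-0.20 to 0.10) and the scaled ratio 0.01 (-0.19 to 0.22), so a difference of the size found in mESCs lies outside its interval. Both genotypes placed the mark alike along the gene in PILECs. The first kb after the annotated start held 553 tags in wt and 509 in menin-null cells, the kb before it 180 and 156, and the second kb 202 and 175. In mESCs the same 3 stretches held 40 and 3, 11 and 2, and 25 and 4 tags.

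**Figure D2:**
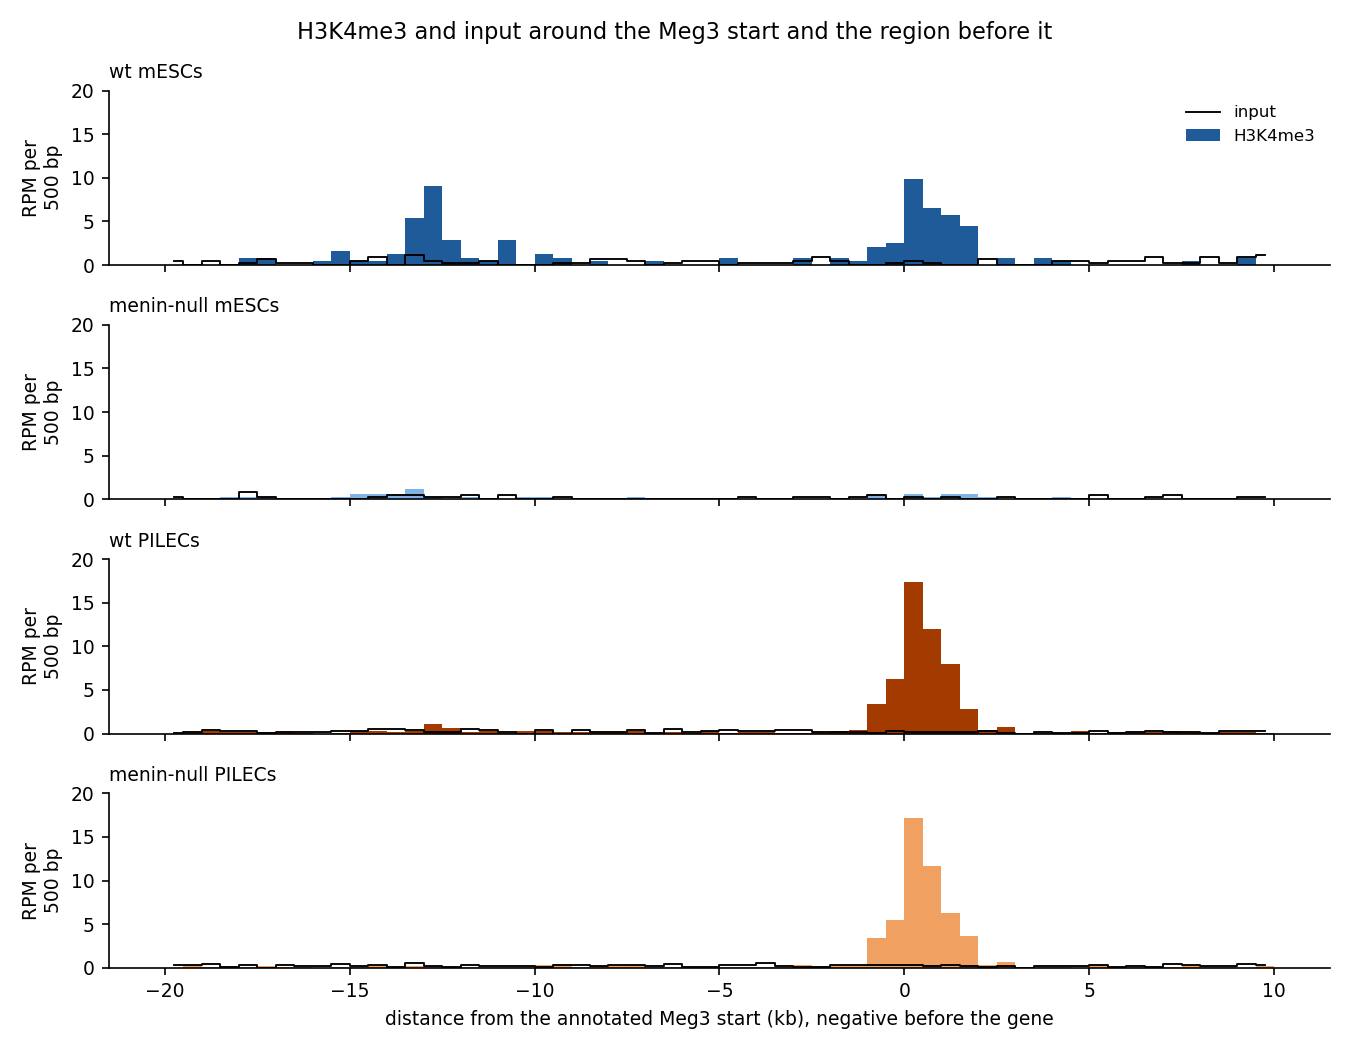
Bars show H3K4me3 and the black line input, in RPM per 500 bp, against the distance in kb from the annotated Meg3 start, with 1 panel for each kind of cell. Wt mESCs have a peak about the start and another about the upstream region. Both peaks are missing from the menin-null mESC panel at this scale, and both PILEC panels show the peak at the start, with a far lower rise about the upstream region in wt PILECs.

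At the upstream region the mESC libraries had 42 (wt) and 5 (menin-null) H3K4me3 tags and the PILEC libraries 34 (wt) and 6 (menin-null), or 17.3, 1.42, 1.81 and 0.339 RPM. Menin-null cells were low at both stages. In wt mESCs its level over local input, 20.9-fold (14.8 to 29.0), was of the order of that at the Meg3 start, and in menin-null mESCs it was 4.19-fold (1.33 to 10.1). In wt PILECs the region stood at 3.10-fold (2.13 to 4.36), far below Meg3, and in menin-null PILECs at 0.626-fold (0.229 to 1.37), at or below the input. The scaled ratio was -2.32 (-4.05 to -0.93) in mESCs. In PILECs, where the local input differed by -0.11 (-0.25 to 0.03), the scaled ratio was -2.31 (-3.86 to -1.03). The PILEC ratio rests on 6 tags in menin-null cells, and the input of the same 1200 bp held 11 tags there and 14 in wt PILECs.

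Meg3 and the upstream region therefore had like scaled ratios in mESCs and unlike ones in PILECs. Both are on the study's list for lower H3K4me3 in menin-null mESCs, which favours low ratios of both at that stage and enters the stage differences. The difference of the scaled ratio between stages, mESCs minus PILECs, was -2.27 (-3.42 to -1.12) at Meg3 and 0.01 (-1.79 to 1.80) at the upstream region, with 0.5 added to each count and intervals from a normal approximation on the log2 scale. The wide interval at the upstream region does not show that the stages were alike. Within wt cells, the level over local input from mESCs to PILECs was higher by 1.28 (0.87 to 1.72) on the log2 scale at Meg3, and lower at the upstream region, by a ratio of -2.76 (-3.48 to -2.04). In menin-null cells these changes were 3.64 (2.53 to 4.99) and -2.74 (-4.74 to -0.66). A rise from mESCs to PILECs was not particular to Meg3. In wt cells all the flanking genes described below rose over local input except Degs2 and Hsp90aa1. Ppp2r5c, for example, went from 24.2-fold to 46.9-fold and Stk30 from 16.5-fold to 31.3-fold. Degs2 went from 11.7-fold to 1.49-fold and Hsp90aa1 from 49.0-fold to 43.6-fold.

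**Figure D3:**
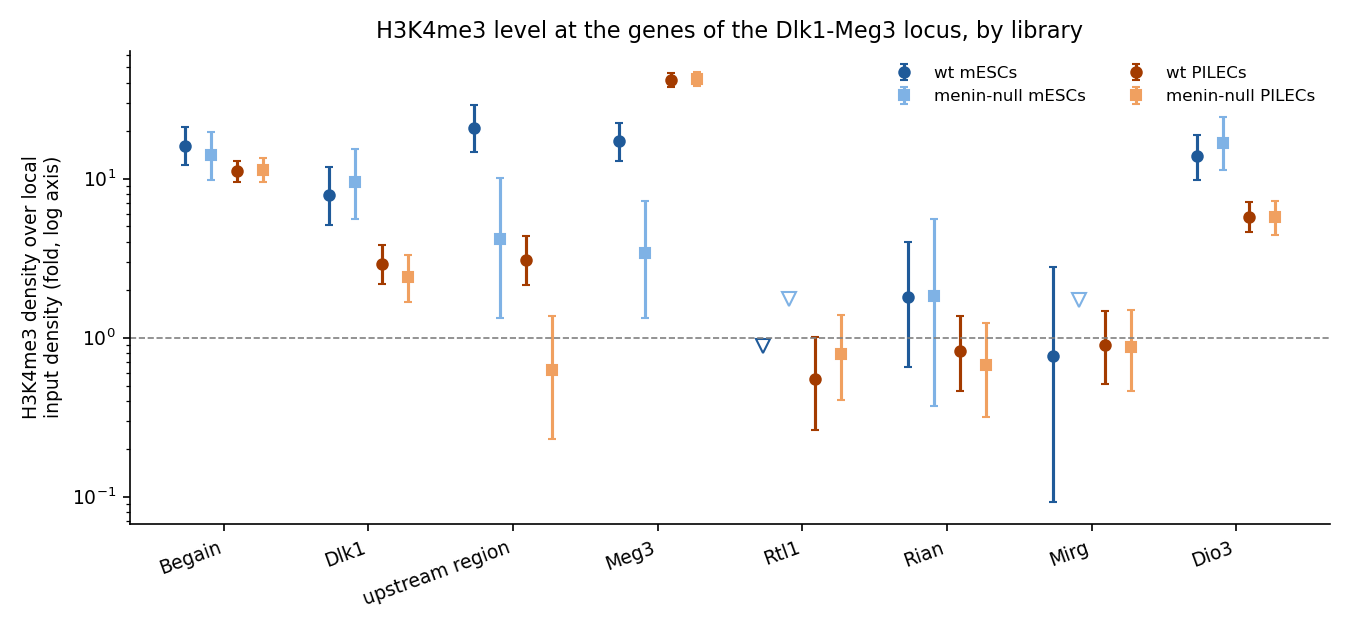
Points give the H3K4me3 density within 1 kb of each start, or over the upstream region, divided by the input density within 50 kb, on a log axis, in each of the 4 kinds of cells. Bars are 95% counting intervals, open triangles mark the level of 3 tags where no tag was counted, and the dashed line is the input level. Begain, Dlk1 and Dio3 have like levels in the genotypes at each stage, while the menin-null mESC point is low at Meg3 and both menin-null points are low at the upstream region.

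Of the paternally expressed genes, Dlk1 (110691033 to 110701546, plus strand) encodes a transmembrane protein of the Delta-Notch family. Its start had 26 (wt) and 20 (menin-null) tags in the mESC libraries and 56 (wt) and 37 (menin-null) in the PILEC libraries, which is 7.94-fold, 9.50-fold, 2.92-fold and 2.39-fold the local input. Input over the same bases held 11, 2, 14 and 12 tags in the same order, or 2.59, 0.534, 0.736 and 0.662 RPM. In wt mESCs it was denser there than within 50 kb (0.673 RPM per kb), so a comparison of the stages depends on the input range. Levels in the genotypes overlapped at both stages. In mESCs the ratio of RPM was -0.91 (-1.83 to -0.01) and the scaled ratio 0.26 (-0.72 to 1.22), the local input being lower by -1.17 (-1.50 to -0.85). In PILECs the scaled ratio was -0.29 (-0.94 to 0.36).

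Dio3 (111517278 to 111519307, plus strand) encodes the deiodinase that inactivates thyroid hormone. The mESC libraries had 45 (wt) and 38 (menin-null) tags at its start and the PILEC libraries 97 (wt) and 78 (menin-null), or 13.8-fold, 16.7-fold, 5.74-fold and 5.70-fold the local input. Input over the same bases held 16, 8, 12 and 19 tags in the same order, or 3.77, 2.14, 0.631 and 1.05 RPM. In mESCs it was denser there than within 50 kb (0.671 RPM per kb in wt and 0.323 in menin-null). A comparison of these levels between stages thus depends on the input range. The scaled ratio was 0.28 (-0.46 to 1.01) in mESCs, against -0.78 (-1.44 to -0.12) in RPM, and -0.01 (-0.49 to 0.46) in PILECs. Rtl1 (110827404 to 110838540, minus strand) derives from a retrotransposon and is needed in the placenta. No tag fell at its start in either mESC library, and 3 tags there would be 0.882-fold the input in wt and 1.75-fold in menin-null mESCs, and in PILECs 10 and 12 tags in wt and menin-null cells lay at 0.548-fold and 0.791-fold the input.

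The other noncoding genes of the maternally expressed group had no level whose interval lay above the local input at their annotated starts. In mESCs, with at most 6 tags, this does not show that a peak was absent. Between the genes of the locus, H3K4me3 itself lay below the input, at 0.263 against 0.501 RPM per kb in wt mESCs. Rian (110842155 to 110899919, plus strand) hosts many small nucleolar RNAs. The counts were 6 (wt) and 3 (menin-null) in mESCs and 15 (wt) and 10 (menin-null) in PILECs, at 0.669-fold to 1.83-fold the input, with every interval including the input level. Mirg (110973191 to 110987665, plus strand) hosts microRNAs and held 2, 0, 16 and 13 tags in the same order, with levels of 0.766-fold in wt mESCs and of 0.900-fold and 0.870-fold in PILECs. The scaled ratio in mESCs was 0.02 (-2.64 to 2.28) at Rian, and at this depth no difference could be detected at either gene.

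Begain, the gene at the other edge of the locus (110270397 to 110291589, minus strand), encodes a brain-enriched protein associated with guanylate kinase. The mESC libraries had 64 (wt) and 43 (menin-null) tags at its start and the PILEC libraries 202 (wt) and 168 (menin-null). The level over local input was 16.1-fold, 14.0-fold, 11.1-fold and 11.3-fold. Input over the same bases held 11, 3, 9 and 11 tags in the same order, or 2.59, 0.801, 0.473 and 0.607 RPM. Its ratio in mESCs was -1.11 (-1.70 to -0.53) in RPM and -0.20 (-0.86 to 0.45) when scaled, and the scaled ratio in PILECs was 0.03 (-0.31 to 0.36).

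**Figure D4:**
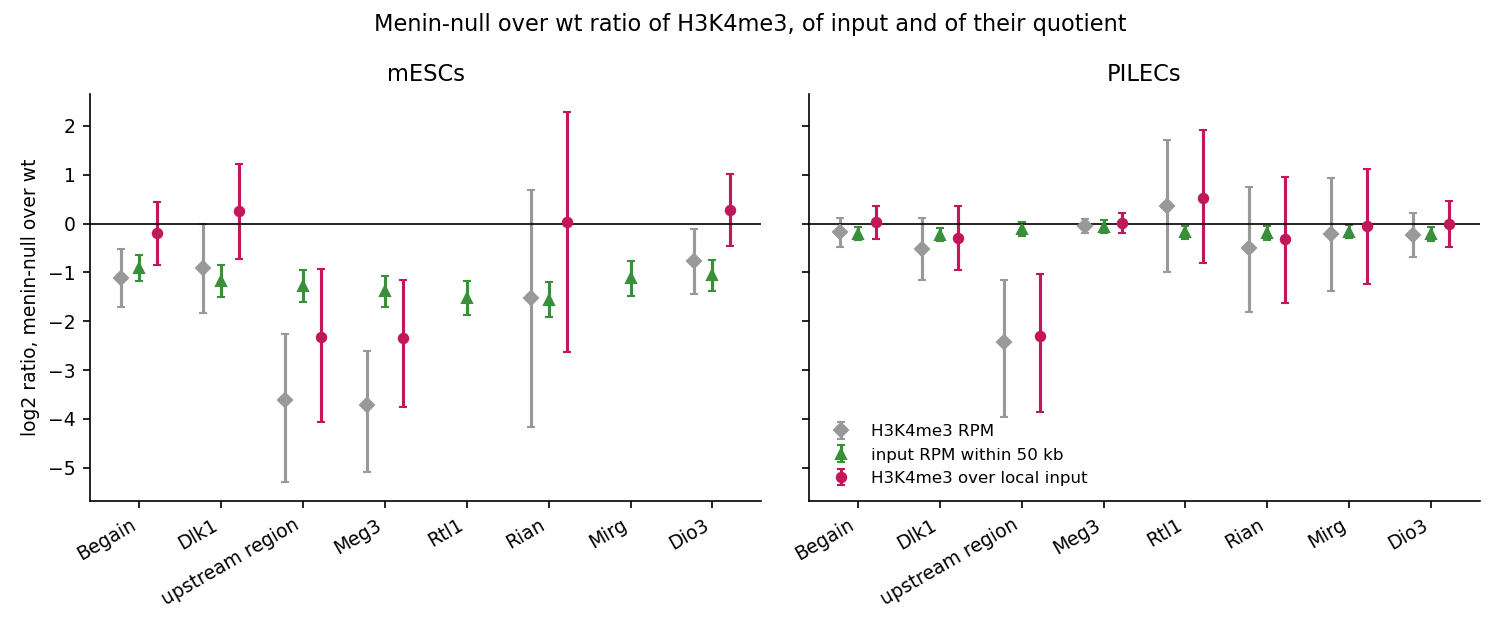
Points give log2 ratios of menin-null over wt at each start and at the upstream region, in mESCs and in PILECs, with 95% counting intervals. Grey diamonds are H3K4me3 RPM, green triangles input RPM within 50 kb, and red circles H3K4me3 over local input, and sites with no tag in a library have no H3K4me3 points. In mESCs the green points lie between -1.55 and -0.91, and only the intervals of Meg3 and the upstream region stay below 0 after scaling.

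The starts with levels above the local input in every library were richer in CG pairs than those whose intervals included the input level. Within 1 kb of the start there were 222 CG pairs at Begain, 229 at Dio3, 132 at Dlk1 and 64 at Meg3, against 11 at Rian, 24 at Rtl1 and 25 at Mirg and a median of 59 over all genes. Among the starts above the input Meg3 had the fewest, close to that median, and the upstream region had 49 in its 1200 bp. This is a description of 7 starts, and the few mESC tags at Rian, Rtl1 and Mirg do not show that the mark was absent there.

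Over all genes with at least 10 tags in both mESC libraries together, 56 of 16171, or 0.346%, had at least 2-fold lower RPM at the start in menin-null mESCs with an adjusted p of at most 0.05 in the exact conditional binomial test with Benjamini-Hochberg adjustment. Of the members 4 could be tested, and 2 of them were called, Meg3 (adjusted p = 1.0e-14 in that exact test) and Begain (adjusted p = 0.0028 in that exact test). Dlk1 (adjusted p = 0.15 in the exact test) and Dio3 (adjusted p = 0.095) were not. Adjusted p-values of the exact test, here and below, cover counting error only, from 1 library per group with duplicate tags kept. Duplicates made up 11.4% of the H3K4me3 tags in wt mESCs and 4.17% in menin-null mESCs. With duplicates counted once, 29 genes were called lower in mESCs. At least 2-fold lower H3K4me3 over local input, a rule of size with no test, was met by 330 genes, or 2.04%, and by Meg3 among the 4 members. None of the 4 was at least 2-fold higher, in RPM with the same adjusted p (0.489% of all genes) or over local input (1.66%). The median scaled ratio, with 1 tag added to each count, was 0.04 over the 4 members and 0.22 over all genes tested, and in RPM it was -0.99 and 0.21. Zero thus lies below the middle of all genes in mESCs by either scale. In PILECs 212 of 24032 genes, or 0.882%, were called lower in RPM and 601, or 2.5%, were lower over local input, and none of the 7 members met either rule, nor the matching rules for higher values, met by 0.424% and 3.35% of all genes. Their median scaled ratio was -0.01, against -0.05 over all genes.

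The mark between the genes was taken outside 5 kb of every member start and outside the upstream region with 1 kb on either side. These stretches sum to 1071 kb and held 489 (menin-null) and 684 (wt) H3K4me3 tags at the mESC stage, a log2 ratio of -1.02 (-1.19 to -0.85). Input over the same bases had -0.98 (-1.09 to -0.88), which leaves -0.03 (-0.24 to 0.17). In PILECs 4657 and 5180 tags gave -0.07 (-0.12 to -0.01) and, over the input, 0.15 (0.08 to 0.23). Outside 5 kb of every annotated start of the genome, the RPM ratio of H3K4me3 was -0.27 in mESCs and 0.09 in PILECs. The input ratio there was 0.01 in mESCs and -0.001 in PILECs. The scaled ratios between the genes are not adjusted for this background. By stretch, the scaled ratio in mESCs was 0.11 (-0.26 to 0.47) from Begain to Dlk1, 0.18 (-0.58 to 0.92) from Dlk1 to Meg3, -0.23 (-2.51 to 1.73) from Meg3 to Rtl1, -0.80 (-1.69 to 0.07) from Rian to Mirg and -0.08 (-0.36 to 0.20) from Mirg to Dio3. Every one of these mESC intervals included 0, and the bases between Rtl1 and Rian were all within 5 kb of a start. In PILECs the scaled ratio was 0.21 (0.08 to 0.34) from Begain to Dlk1 and 0.31 (0.03 to 0.60) from Rian to Mirg. From Mirg to Dio3 it was 0.13 (0.03 to 0.23). The PILEC intervals from Dlk1 to Meg3 and from Meg3 to Rtl1 included 0. Within the body of Meg3 beyond its start the scaled ratio was -0.02 (-1.85 to 1.64) in mESCs, on 6 (menin-null) and 13 (wt) tags, and -0.02 (-0.46 to 0.41) in PILECs. The mESC interval is too wide to tell a lower mark along the gene from an equal one.

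A search of 1350 windows of 1 kb, from 50 kb before the locus to 50 kb after it, found where else the mark stood above the local input (one-sided Poisson p of at most 1e-05 in a library). At the mESC stage 15 (wt) and 8 (menin-null) such windows were found and at the PILEC stage 15 (wt) and 11 (menin-null), and the 21 found in any library joined into 11 stretches. Of these, 5 lie at the starts of Begain, Dlk1, Meg3 and Dio3 and at the upstream region. A stretch of 2000 bp (chr12:110305001-110307000) lay in no annotated gene, and its nearest 1-kb window was centred 13.9 kb before the Begain start. The stretch had mESC counts of 50 (wt) and 42 (menin-null) and PILEC counts of 148 (wt) and 116 (menin-null). These were 13.8-fold, 13.7-fold, 8.17-fold and 7.70-fold the input. Its level lay below that of the Begain start in each library, and the intervals of both sites overlapped in all but menin-null PILECs. It had scaled ratios of -0.01 (-0.70 to 0.68) and -0.08 (-0.48 to 0.30) in mESCs and PILECs, and held 59.5 CG pairs per kb.

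Other stretches passed the threshold at 1 stage, which the lower depth of the mESC libraries also affects. Centred 179 kb before the Begain start, a window (chr12:110470001-110471000) passed it in wt mESCs alone. The mESC counts there were 7 (wt) and 5 (menin-null), 11.5-fold (4.53 to 24.6) and 14.0-fold (4.30 to 35.6) the input. In PILECs 1 (wt) and 4 (menin-null) tags lay at 0.215-fold and 1.07-fold. Between Mirg and Dio3, 212 kb after the Mirg start (chr12:111185001-111188000), the mESC counts were 30 (wt) and 22 (menin-null), 6.85-fold and 6.15-fold the input, against 1.46-fold and 1.39-fold in wt and menin-null PILECs. Centred 3.16 kb before the Dlk1 start (chr12:110688001-110689000) the PILEC counts were 40 (wt) and 27 (menin-null), 4.08-fold and 3.48-fold, and the mESC counts 5 and 1, 3.07-fold (0.991 to 7.26) and 0.926-fold (0.0232 to 5.26). The stretch 89.8 kb before Dio3 (chr12:111426001-111428000) had PILEC counts of 80 (wt) and 39 (menin-null), 4.44-fold and 2.84-fold. Its scaled ratio in PILECs was -0.65 (-1.26 to -0.06), the only interval below 0 at that stage besides that of the upstream region among the 11 stretches, and it is not adjusted for their number. This stretch passed the threshold in wt PILECs alone, so the tags that chose it also favoured a ratio below 0 there. In mESCs the stretch held 8 (wt) and 9 (menin-null) tags, 2.72-fold (1.16 to 5.44) and 4.28-fold (1.91 to 8.42) the input within 50 kb. Over the same bases wt mESCs had 3.29 RPM of H3K4me3 beside 11 input tags, 2.59 RPM. Menin-null mESCs had 2.56 RPM beside 4 input tags, 1.07 RPM. A mark there in wt mESCs is thus not shown. The scaled ratio of the stretch in mESCs was 0.65 (-0.94 to 2.27). Within the last part of Begain (chr12:110271001-110273000) wt mESCs had 25 H3K4me3 tags, 10.3 RPM, beside 26 input tags, 6.12 RPM, over the same bases. Menin-null mESCs had 28 H3K4me3 tags, 7.96 RPM, beside 1 input tag, 0.267 RPM, so the input of this stretch differed between the genotypes more than the mark did.

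**Figure D5:**
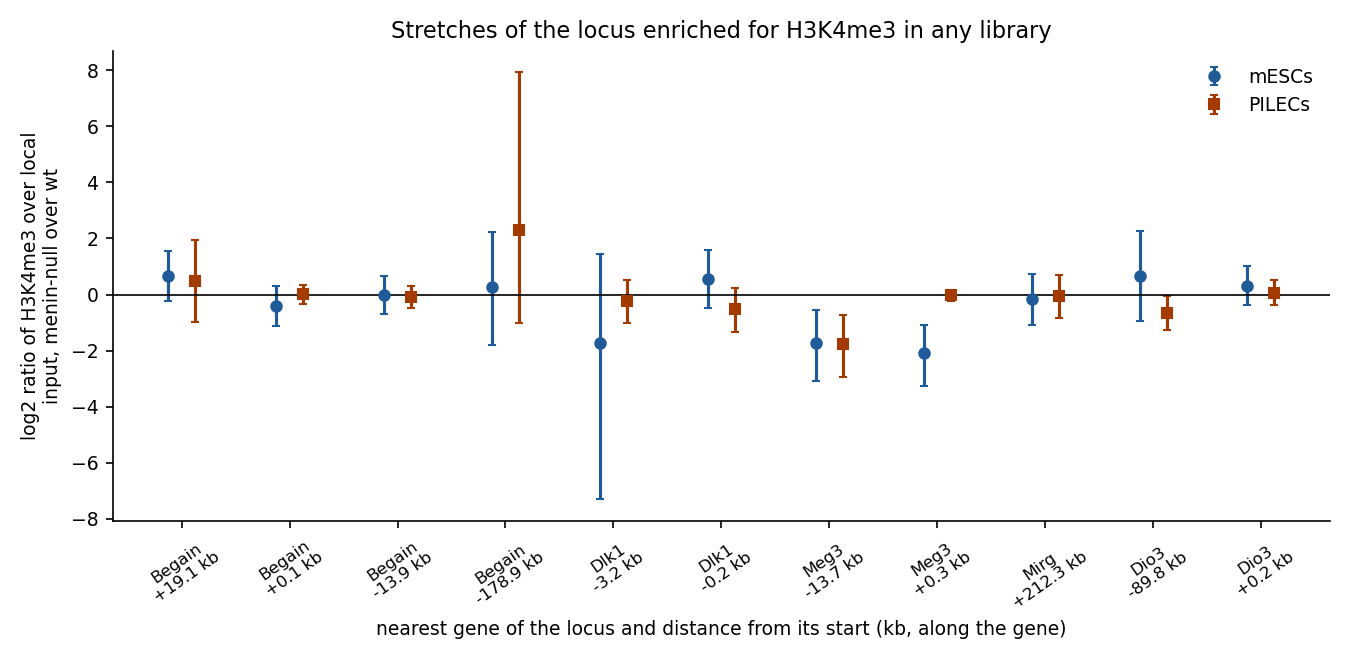
Points give the log2 ratio of H3K4me3 over local input, menin-null over wt, in each of the 11 stretches enriched in any library, with 95% counting intervals, in mESCs (blue circles) and PILECs (brown squares). Stretches are named by the nearest gene of the locus and the distance in kb from its start. The stretch at the upstream region is below 0 at both stages, and that at the Meg3 start in mESCs alone. Stretches were chosen by their counts in these libraries, which favours ratios below 0 where wt alone passed the threshold.

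Genes just outside the locus served as neighbours on the same stretch of chromosome. The 5 nearest with at least 10 mESC tags on either side were Degs2, Yy1, Slc25a29, Wars and Wdr25 before Begain, of which Wars and Wdr25 share nearly all their tags, and Ppp2r5c, Dync1h1, Hsp90aa1, Wdr20a and Stk30 after Dio3. Their local input ratio in mESCs lay between -1.15 and -0.78, so the lower input reached beyond the locus on both sides. Scaled ratios ran from -0.73 to 0.71 with a median of 0.14, 0 of 10 had an interval below 0 and 3 of 10 one above 0, against a median of -0.73 in RPM. Those above 0 were Yy1, which encodes a zinc-finger transcription factor, at 0.71 (0.31 to 1.10), Dync1h1, which encodes the heavy chain of dynein, at 0.66 (0.18 to 1.14) and Ppp2r5c, which encodes a regulatory subunit of a protein phosphatase, at 0.59 (0.09 to 1.08). The median over all genes tested in mESCs was itself 0.22, which lies inside the intervals of Dync1h1 and Ppp2r5c and below that of Yy1. The share of all genes with intervals above or below 0 was not counted. In PILECs the scaled ratios ran from -0.94 to 0.12, and 1 of 10, Wdr20a at -0.24 (-0.43 to -0.05), had an interval below 0.

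Among 24347 genes outside the locus, the pattern of H3K4me3 at the start over the 4 libraries that was nearest to that of Meg3 was that of Mest, at a Euclidean distance of 0.43 in log2 RPM. Mest, a paternally expressed imprinted gene on chromosome 6, had mESC counts of 58 (wt) and 8 (menin-null) and PILEC counts of 641 (wt) and 558 (menin-null). The next was Plagl1, an imprinted gene on chromosome 10, at 1.36, with 31, 6, 637 and 379 tags in the same order. Then came Trhde at 1.71, Gm15723, which starts next to Trhde, at 1.77 and 2610316D01Rik at 1.79. These distances describe 4 libraries, and Plagl1 differed from Meg3 in PILECs, where its scaled ratio was -0.71. None of 23 genes listed for imprinting and for H3K4 and H3K27 methylation was called lower at its start at either stage by either rule, beside the 0.346% and 0.882% of all genes called in RPM in mESCs and PILECs and the 2.04% and 2.5% over local input. Dnmt3a, which encodes a DNA methyltransferase and was named after its values were seen, came near in PILECs, with a log2 ratio of -0.86 in RPM (adjusted p = 2.2e-13 in the exact test) and of -0.83 when scaled. The median scaled ratio of the list was 0.28 in mESCs and -0.13 in PILECs.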

How the data were processed

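Tags of H3K4me3 ChIP-Seq and of input were analysed in 4 kinds of cells, wt or menin-null and mESC or PILEC, with 1 library per group. The authors aligned reads of 36 bp to mm9 and deposited the position of each uniquely aligned tag, without normalization. An alignment score was deposited by the authors with each tag and was not used. Tags were counted with Python 3.11.15, numpy 2.4.6, pandas 2.3.3, scipy 1.17.1 and pysam 0.24.0, and plots were drawn with matplotlib 3.10.9.

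All tags, duplicates included, were moved to the middle of a 250-bp fragment and scaled to 1000000 tags of the library (RPM). Genes came from GENCODE on NCBIM37, the assembly of mm9, and the start with the most H3K4me3, by RPM summed over the 4 libraries, stood for a gene. Totals of 2432377 to 18773635 H3K4me3 tags set the precision, and intervals cover counting error. Libraries were compared by exact conditional intervals, and over all genes by the exact binomial test with Benjamini-Hochberg adjustment. The named genes were the members, 5 flanking genes on each side, the 5 genes nearest to Meg3 by Euclidean distance, and listed regulators if called. The marker genes of the cell types, Dnmt3a, Gm17639 and Dio3os were named outside this rule. Members, lists and settings were chosen with earlier results of these data known. Alternatives changed the duplicates, tag position, windows, input range, scaling, depth, mismatches and tag minimum. The expression arrays of the study were not used here.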

Additional observations from a re-analysis of the deposited data

Results flagged for a closer look

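The scaled ratio at the Meg3 start differed between the stages by -2.27 on the log2 scale, mESCs minus PILECs (95% interval -3.42 to -1.12, from a normal approximation on the counts with 0.5 added to each), and this difference of the effect itself is what drew attention to it. The ratio was -2.26 in mESCs and 0.01 in PILECs in this calculation. The low mESC ratio was known beforehand, since the study listed the Meg3 promoter for lower H3K4me3 in these mESC libraries. The interval therefore describes the difference and is not an independent test of it. The mESC value rests on 7 menin-null tags. Input of the locus moved with it, at 49.0% of wt RPM in menin-null mESCs and 86.6% in menin-null PILECs, and its part in the result beyond the division was not tested. No other member had an interval of this difference that left out 0.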

How the results depend on the processing

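No paired analysis was possible because each group has 1 library. At Meg3 the ratio in mESCs lay between -3.72, the value without division by input, and -2.06 under 13 alternatives, with every interval below 0, and in PILECs between -0.26 and 0.16, with every interval including 0. At the upstream region it lay between -3.60, again without division by input, and -2.04 in mESCs under 11 alternatives, and between -2.59 and -1.93 in PILECs under 9, with every PILEC interval below 0. Subtraction of the input tags of the same window gave -3.35 in mESCs, with an interval from a normal approximation that included 0 (-6.98 to 0.28), and no value in PILECs, since the input of menin-null PILECs exceeded the mark. Thinning also gave no PILEC value there. Division by the H3K4me3 tags between the genes of the locus, chosen after seeing the data, gave -2.71 at Meg3 and -2.59 at the upstream region in mESCs. Without division by input, Dio3 and Dlk1 in mESCs turned from above 0 to -0.78 and -0.91, with intervals below 0, since the locus had fewer input tags. The input ratio over the locus stayed between -1.04 and -1.02 in mESCs and between -0.21 and -0.19 in PILECs under 5 alternatives, and scaling by H3K4me3 tags has no bearing on it. The stage difference lay between -3.59, without division by input, and -1.90 at Meg3 under 6 alternatives, with every interval below 0, and every interval of that of the upstream region included 0.

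Counts of genes moved most. A fold of 1.5 gave 106 lower genes in mESCs and 705 in PILECs in RPM, and 874 and 2069 over local input. Counting duplicates once gave 29 in mESCs in RPM. Over local input, no minimum of tags gave 2829 in mESCs, at least 20 tags gave 148 in mESCs and 348 in PILECs, and scaling by H3K4me3 tags near starts gave 549 in mESCs. Depth limits Rtl1, Rian and Mirg in mESCs, where no start held more than 6 tags.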

Other observations

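The input of the part of the locus from the Meg3 start to the Mirg end, which was set apart after its values were seen, was compared with the rest. Over these 208 kb the input of mESCs held 189 (menin-null) and 546 (wt) tags, a log2 ratio of -1.35 (-1.59 to -1.11), against -0.96 (-1.07 to -0.86) over the rest of the locus. The difference was -0.38 (-0.65 to -0.12). The low values were not confined to this part. The 50-kb bins centred at -304, -254 and -204 kb from the Meg3 start, outside it, had -1.40, -1.38 and -1.26, and a bin inside it had -0.65. In PILECs the ratios were -0.20 (-0.30 to -0.11) and -0.21 (-0.25 to -0.16), and their difference was 0.00 (-0.10 to 0.11). In wt mESCs the input density was 0.867 RPM per kb within Meg3, 0.903 between Meg3 and Rtl1, 0.468 within Rian and 1.04 within Mirg, against 0.501 over all stretches between the genes. In menin-null mESCs these densities were 0.281, 0.245, 0.142, 0.282 and 0.253 RPM per kb. The cause was not tested.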
